A study of Mus musculus with 18 samples.

Results

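Maternally methylated imprinted genes were examined at 10 loci, Peg3, Snrpn, Kcnq1ot1, Peg10, Plagl1, Impact, Airn, Inpp5f, Zdbf2 and Mcts2, by enhanced reduced representation bisulfite sequencing (eRRBS) of mouse embryonic stem cells. In this assay restriction fragments are treated with bisulfite, which converts unmethylated cytosine, and are then sequenced. Each locus was taken as the GENCODE M21 gene with 5 kb either side. The 10 windows span 745 kb and hold 6931 CpGs of the deposited table, of which 2503 had at least 1 read in all 18 libraries. These made 293 tiles of 1 kb with at least 3 such CpGs, of 773437 tiles in the genome. The cells carry a knockout of Dnmt1, the enzyme that copies CpG methylation to the new DNA strand after replication. They stably express either WT DNMT1 or DNMT1 with tryptophan replaced by alanine, in 5 mutant groups. W796A and W465A are single mutants, W465A/W796A and W464A/W465A are double mutants, and the triple mutant is W464A/W465A/W796A. All 6 groups share the knockout host, the expression vector pPyCAGIP, puromycin selection and culture on gelatin with serum and leukemia inhibitory factor. Each group has 3 libraries labelled as biological replicates, and whether these are separate stable lines is not given in the sources used here. P-values therefore measure the spread between these libraries, which may be technical.

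Genomic imprints are methylation marks set in the egg or the sperm and then copied at each cell division by DNMT1. At a maternally methylated locus a CpG-dense control region is methylated on the copy from the mother and unmethylated on the copy from the father, so reads from both copies together give an intermediate level. The protein ZFP57 binds the methylated hexamer TGCCGC in such regions and helps to protect the mark during early development. The reads carry no parental label, so a level does not say which copy is methylated.

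Depth was between 59776439 CpG calls in WT replicate 3 and 138978763 in WT replicate 2. The overall share of methylated calls was 48.0% in WT replicate 1 against 61.0% and 60.8% in the other WT libraries. It was 43.8% in W796A replicate 1 against 62.5% and 61.7% in the other W796A libraries. These 2 libraries thus lay below the rest of their groups.

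An imprinted region was found at 9 of the 10 genes, as the CpG-dense region at or in the gene. On GRCm38 it lies at the gene start of Peg3 (chromosome 7, 6729141 to 6730537), Kcnq1ot1 (chromosome 7, 143294958 to 143296694) and Peg10 (chromosome 6, 4746843 to 4748740, shared with Sgce). It also lies at the start of Airn (chromosome 17, 12741262 to 12742677, inside Igf2r) and of Mcts2 (chromosome 2, 152686688 to 152687397, inside H13). In Snrpn it lies at a downstream annotated start (chromosome 7, 60004661 to 60005332), because no dense region overlaps the most upstream start. In Plagl1 (chromosome 10, 13090378 to 13091403), Inpp5f (chromosome 7, 128687802 to 128688709) and Impact it lies inside the gene, away from the upstream promoter. In the Zdbf2 window the dense region at the gene start is its own promoter (chromosome 1, 63272880 to 63274044). The other 2 dense regions tested there have 3 shared CpGs each and were at 60.1% and 73.5% in WT. The region known to carry the Zdbf2 imprint lies outside the window, at the start of Platr12 (chromosome 1, 63200060 to 63200679), and is given separately below.

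Stretches of 150 bases from 6 of these regions show the hexamer on which the ZFP57 background rests. They were read from the GRCm38 reference, plus strand, 5′ to 3′, and capitals mark TGCCGC or its reverse complement GCGGCA.
Peg3, chr7:6730055-6730204: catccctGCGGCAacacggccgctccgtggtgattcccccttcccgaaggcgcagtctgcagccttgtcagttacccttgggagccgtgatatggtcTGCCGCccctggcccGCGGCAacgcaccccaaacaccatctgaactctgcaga
Snrpn, chr7:60004678-60004827: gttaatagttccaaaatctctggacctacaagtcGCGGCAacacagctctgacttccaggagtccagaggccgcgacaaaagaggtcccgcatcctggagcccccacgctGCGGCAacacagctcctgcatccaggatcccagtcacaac
Kcnq1ot1, chr7:143295633-143295782: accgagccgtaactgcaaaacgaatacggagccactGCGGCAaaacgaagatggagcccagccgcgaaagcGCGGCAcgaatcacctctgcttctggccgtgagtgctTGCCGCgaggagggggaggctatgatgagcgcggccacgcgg
Plagl1, chr10:13091075-13091224: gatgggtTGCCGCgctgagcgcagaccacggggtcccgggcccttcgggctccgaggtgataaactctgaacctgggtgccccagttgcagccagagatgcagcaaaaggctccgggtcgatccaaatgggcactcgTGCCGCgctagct
Airn, chr17:12741761-12741910: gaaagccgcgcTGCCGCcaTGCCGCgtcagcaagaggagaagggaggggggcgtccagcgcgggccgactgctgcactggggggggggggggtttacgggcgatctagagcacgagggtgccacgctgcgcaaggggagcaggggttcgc
Inpp5f, chr7:128687912-128688061: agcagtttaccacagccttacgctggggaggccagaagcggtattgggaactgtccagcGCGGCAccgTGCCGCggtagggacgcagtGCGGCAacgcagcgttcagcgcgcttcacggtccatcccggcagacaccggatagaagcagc
All 9 imprinted regions held at least 3 matches on either strand, 45 in all, with 3 to 8 per region and a median of 5.01 per kb. Among the 13165 CpG-dense regions of the genome with at least 50 CpGs, 58.5% held at least 1 match and 12.6% at least 3, with a median of 0.762 per kb. A match is a description of the letters and not evidence of binding.

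The imprinted regions of Peg3, Snrpn, Kcnq1ot1, Peg10, Impact and Mcts2 were almost free of methylation in every group, WT included. These 6 were set apart from the other 3 after their values were seen. Over their 108 library values the highest was 4.53%, in W796A replicate 2 at Peg10. Of these values 95 were under 1% and 28 were at 0. Peg3, which encodes a zinc finger protein, had levels of 1.22%, 0% and 0.559% in the WT libraries, from 327, 478 and 179 CpG calls. The 0 in WT replicate 2 allows a share of up to 0.628%, from 3 calls of the total. Snrpn, which encodes a splicing protein, had 0%, 0.118% and 0.300% in WT. Kcnq1ot1, a long noncoding RNA that silences neighbouring genes on the paternal copy, had 0.556%, 0.883% and 0.735%. Peg10, derived from a retrotransposon, had 0.284%, 3.31% and 0.658%. WT replicate 2 stood above the other WT libraries there and at Impact, where the WT levels were 0.578%, 2.57% and 0%. Mcts2, a retrogene inside H13, had 0.164%, 0.783% and 0% in WT. A call needed an adjusted p under 0.05 and 10 points of difference, and with WT levels this low no fall could reach 10 points. Without that minimum Kcnq1ot1 was lower in the triple mutant, with 0.191%, 0% and 0% and no overlap with WT (pooled difference -0.697 points, quasi-binomial adjusted p = 0.0140, exact permutation p = 0.1). These Kcnq1ot1 levels rest on 3, 12 and 4 methylated calls in WT and 2, 0 and 0 in the triple mutant. Its values at 0 allow up to 0.415% and 0.431%. Impact in W465A had an adjusted p of 0.0205 for -1.17 points, but its groups overlapped and the exact permutation p was 0.5. WT replicate 2 held 28 methylated calls at Impact, against 3 and 0 in the other WT libraries. Impact in W464A/W465A and in the triple mutant had quasi-binomial adjusted p of 0.0389 and 0.0291, again with overlap. These Kcnq1ot1 and Impact comparisons are given because no others of the 6 regions against WT had such a p under 0.05. On simulated data whose spread did not shrink with reads, that model called too many unchanged features.

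**Figure D1:**
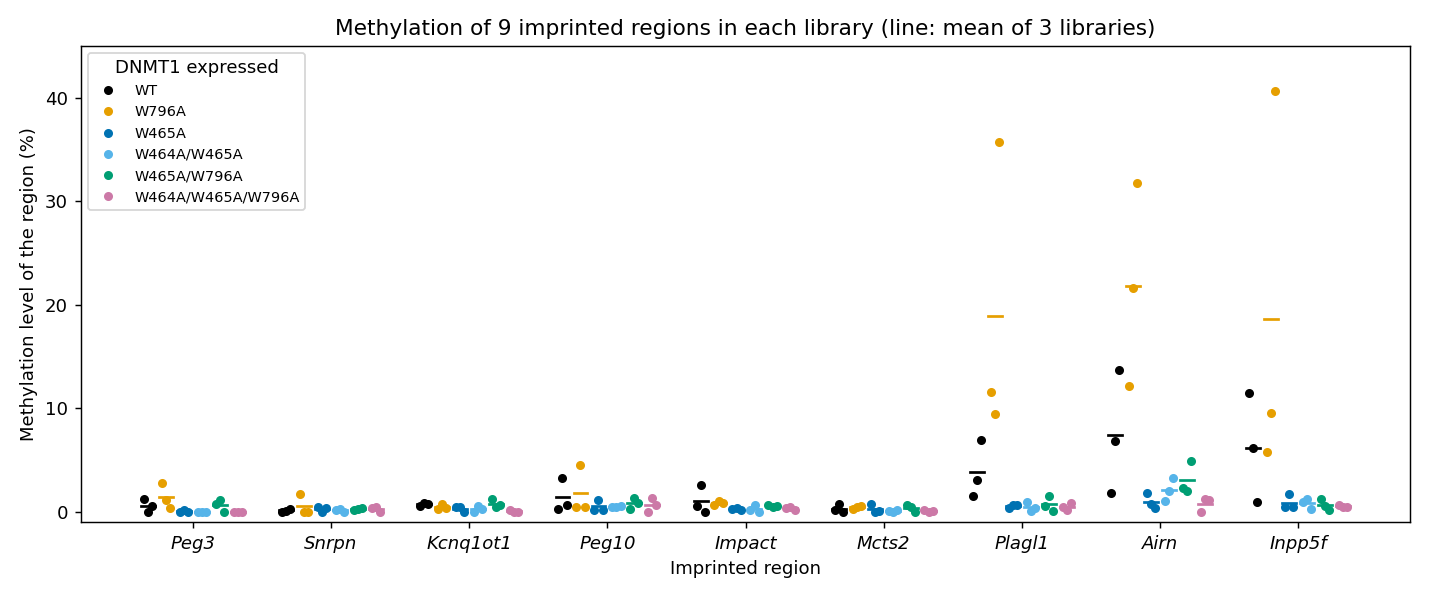
Methylation level (%) of each of the 9 imprinted regions, with 1 point per library, coloured by the DNMT1 expressed, and a line at the mean of 3 libraries. Peg3, Snrpn, Kcnq1ot1, Peg10, Impact and Mcts2 stay at or below 4.53%, and the high points belong to W796A at Plagl1, Airn and Inpp5f.

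Plagl1, Airn and Inpp5f had WT levels from 0.991% to 13.7%, and their mean was higher in W796A. Whether WT levels this low are a retained imprint was not tested. Plagl1, a zinc finger transcription factor gene, had 1.49%, 3.09% and 6.97% in the WT libraries and 11.6%, 9.44% and 35.7% in the W796A libraries. All 3 W796A libraries lay above all 3 WT libraries, and the exact two-sided permutation p was 0.1, the smallest that 3 libraries against 3 can give. In the fit over all dense regions the pooled difference was 12.4 points with an adjusted p of 0.194, so it was not called. With replicate number as a block in that fit its adjusted p was 0.0171. Airn, the noncoding RNA that runs antisense to Igf2r, had 1.79%, 6.88% and 13.7% in WT and 12.2%, 21.6% and 31.8% in W796A. The groups overlapped there, with an exact permutation p of 0.2 and an adjusted p of 0.171 for 14.4 points. It was called without WT replicate 3 (adjusted p = 0.0457) and without W796A replicate 1 (adjusted p = 0.0220). With replicate number as a block in the fit the adjusted p at Airn was 0.0266. Inpp5f, which encodes a phosphoinositide phosphatase, had 11.5%, 6.15% and 0.991% in WT and 5.75%, 9.59% and 40.6% in W796A. These overlapped as well, with an exact permutation p of 0.5 and an adjusted p of 0.551. edgeR gave an adjusted p of 1 for Plagl1, Airn and Inpp5f in this comparison. In the 4 groups that carry W465A, the 36 library values at these 3 regions reached at most 4.89%. The W465A libraries had 0.376%, 0.699% and 0.636% at Plagl1, each below every WT library. At Airn they had 1.79%, 0.775% and 0.341%, of which the highest equalled the lowest WT level to the digits given. At Inpp5f they had 0.473%, 1.71% and 0.430%, so they overlapped WT replicate 3. Airn had the highest level of these 3 regions in W465A/W796A, with 2.28%, 2.06% and 4.89%. The pooled difference of W465A from WT was -2.90 points at Plagl1, -5.53 points at Airn and -4.77 points at Inpp5f, below the minimum size for a call. The adjusted p was 0.114, 0.0193 and 0.0643 by the quasi-binomial model and 0.00234, 0.00416 and 0.00385 by edgeR.

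W796A replicate 3 held the highest value at all 3 regions, and its methylation was spread over the CpGs read. At Plagl1 all 39 CpGs with at least 5 reads had a level of 20% or more in that library, with a median of 40.9%. At Airn this held for all 22 such CpGs, with a median of 27.8%. At Inpp5f all 46 such CpGs had a methylated read and 32 had at least 20%. The depth behind this was small, with a median of 16, 9 and 6 reads per CpG at Plagl1, Airn and Inpp5f. Neighbouring CpGs often had the same level, and the deposited counts do not show which read pairs cover them. A read pair can cover several neighbouring CpGs, so the number of CpG calls can overstate the number of molecules. Intervals and limits from counts cover counting error only.

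**Figure D2:**
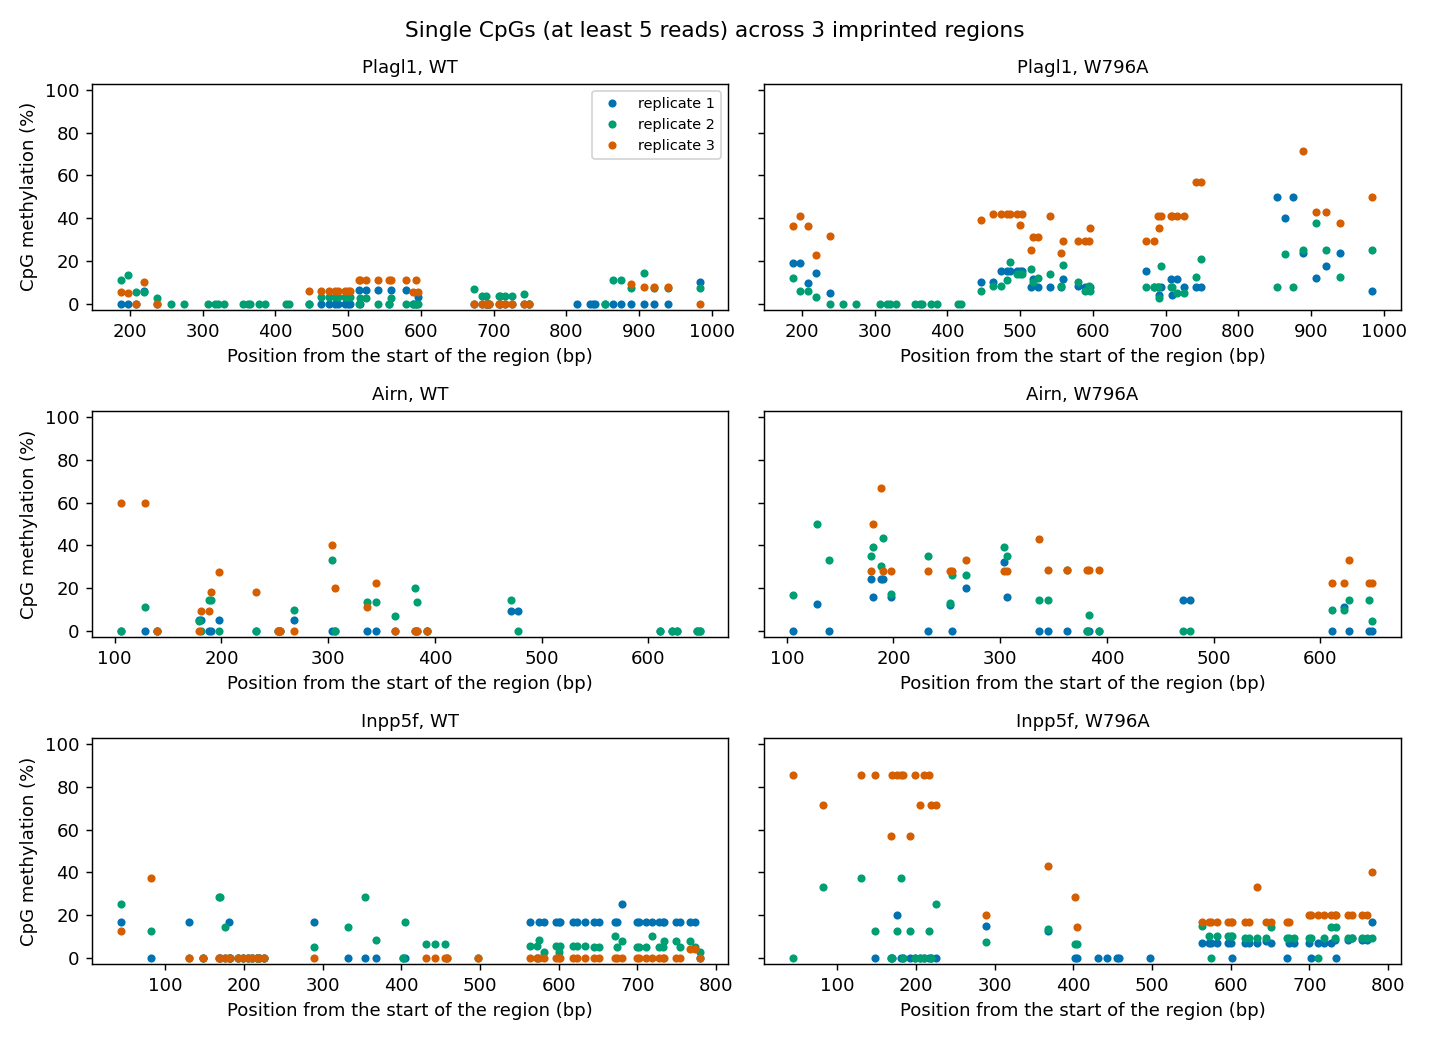
Methylation (%) of single CpGs with at least 5 reads, against position from the start of the region in bp, for Plagl1, Airn and Inpp5f (rows) in WT and W796A (columns), with replicates in different colours. In W796A replicate 3 the CpGs of Plagl1 lie between 22.7% and 71.4%, and runs of neighbouring CpGs have equal values.

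The start of Platr12, where the Zdbf2 imprint is known to lie, was partly methylated in WT. Zdbf2 encodes a zinc finger protein. The WT levels at the Platr12 start were 27.1%, 28.8% and 6.36%, and the W796A levels were 1.02%, 25.8% and 2.26%, so both groups held high and low libraries. The 3 W465A libraries lay between 0.325% and 3.00%, below every WT library. The mean was 20.8% in WT, 1.47% in W465A, 1.38% in W464A/W465A and 1.40% in the triple mutant. With the reads of a group pooled, which weights deeper libraries more, the level fell by 22.9 points in W465A (quasi-binomial model, adjusted p = 0.00293). In the same terms it fell by 23.1 points in W464A/W465A (adjusted p = 0.00402) and by 23.3 points in the triple mutant (adjusted p = 0.00208). W465A/W796A had 20.1%, 0.481% and 8.09%, and its adjusted p of 0.175 did not pass. The Zdbf2 promoter itself stayed between 0.144% and 1.15% in all 18 libraries.

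Promoters in the same windows that are not imprinted regions were also low. In WT the upstream promoter of Plagl1 had 2.14% ± 1.24 (SD, n = 3) and that of Impact, which encodes a regulator of translation, 5.77% ± 2.86 (SD, n = 3). A low level was common among large CpG-dense regions, since 85.5% of the 12479 tested with at least 50 CpGs were under 10% in WT. Over all 92644 dense regions tested, small ones included, 20.1% were under 10%. Of 9 other maternally methylated genes listed for comparison, 5 had a measured dense region at the start, and 4 of these 5 were at 10% or more in WT. Nnat had 23.5% ± 13.4 (SD, n = 3), Peg13 21.3% ± 3.51 (SD, n = 3), Gnas 13.1% ± 10.4 (SD, n = 3), Nap1l5 10.5% ± 8.13 (SD, n = 3) and Nespas 0.764% ± 0.529 (SD, n = 3). The median of those 5 was 13.1%, and that of the 9 imprinted regions was 1.05%. The 5 regions were taken by position at the gene start and were not shown to be the maternally methylated control regions. This holds for Gnas, whose level is that median. In W796A the means were 36.8% ± 32.3 at Nnat, 30.7% ± 12.1 at Peg13 and 28.5% ± 14.1 at Nap1l5 (SD, n = 3). Gnas had 8.11% ± 6.72 and Nespas 1.79% ± 0.798 (SD, n = 3), and none of these was called against WT. W796A replicate 3 was the highest of its group at Nnat (73.0%), Peg13 (44.6%) and Nespas (2.33%). Replicate 2 was the highest at Nap1l5 (39.6%) and Gnas (15.2%).

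The sequence around the imprinted regions was highly methylated in WT. In the windows outside every dense region the mean WT level ran from 64.7% at Snrpn to 79.5% at Peg10, with a median of 71.0% over the 10 genes. At Peg3 these flanks had 65.5%, 74.5% and 70.0% in WT, beside 1.22%, 0% and 0.559% in the region. The imprinted region lay below its own flank in all 162 pairs of region and library. A stretch of low methylation around each dense region was measured outward from its edges. It exceeds the dense region by construction, and CpGs under 50% or with fewer than 10 reads in WT count as inside. Measured between the nearest CpGs with at least 50% methylation and 10 reads in WT, it was 10.4 kb at Snrpn, 7.30 kb at Impact, 5998 bp at Peg3, 5.35 kb at Peg10 and 4.49 kb at Kcnq1ot1. It was 2.76 kb at Inpp5f, 1.84 kb at Plagl1, 1.76 kb at Airn and 1.46 kb at Mcts2. These widths are upper limits where few CpGs were read, such as the 34 CpGs across the Snrpn stretch. At Airn methylated CpGs lay 167 bp and 182 bp from the edges of the region.

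**Figure D3:**
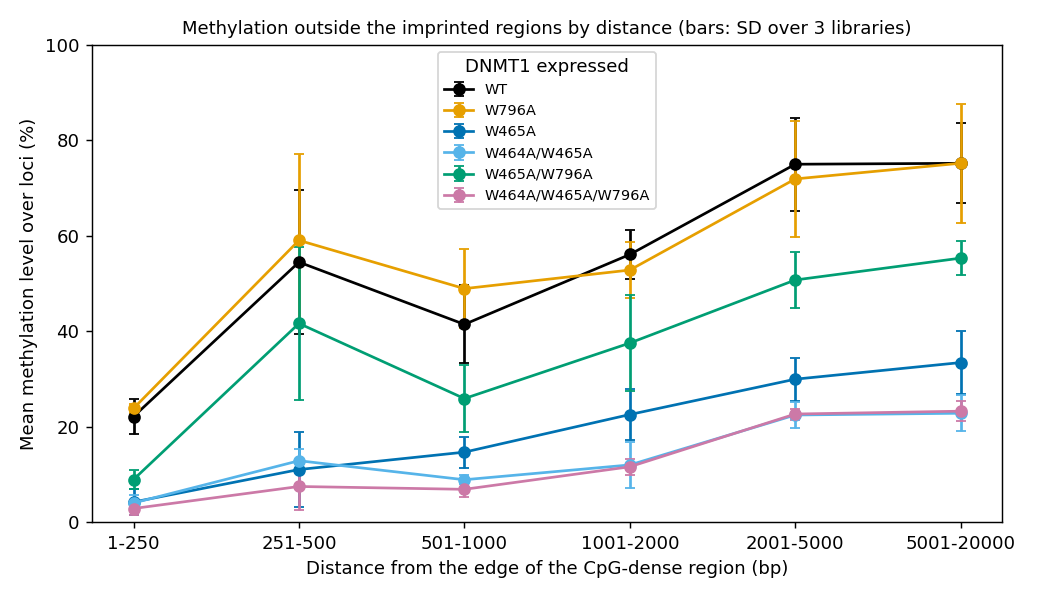
Mean methylation level (%) over the loci with a measured CpG, by distance in bp from the edge of the imprinted region, for the 6 groups, with bars for the SD over 3 libraries. WT rises from 22.1% within 250 bp to 75.2% beyond 5000 bp; different loci enter each bin, and the bin ending at 500 bp rests on 8 CpGs of 3 loci.

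The rise with distance from the imprinted region was present in the mutants at a lower level. In W465A the mean over loci went from 4.23% ± 2.79 (SD, n = 3) within 250 bp to 22.6% ± 5.36 (SD, n = 3) in the bin ending at 2000 bp and 33.4% ± 6.52 (SD, n = 3) beyond 5000 bp. W465A/W796A had 8.95% ± 2.03 within 250 bp and 55.3% ± 3.54 beyond 5000 bp (SD, n = 3). In the 3 bins the triple mutant had 2.87% ± 1.46, 11.6% ± 1.69 and 23.3% ± 2.03 (SD, n = 3). Within 250 bp of the edge only 13 CpGs of 6 loci were read, and in WT they ran from 0% at Kcnq1ot1 to 57.9% at Airn.

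Low tiles that do not overlap an imprinted region were few and mostly near annotated transcript starts. Of the 293 tiles, 28 were under 20% in WT, and 18 of these overlap an imprinted region. Of the other 10, 8 lie within 500 bp of an annotated transcript start. The remaining 2 are at Peg10 (chromosome 6, 4749001 to 4750000, 0.532% in WT) and at Peg3 (chromosome 7, 6727001 to 6728000, 0% in WT from 4 CpGs). Both lie inside the stretch of low methylation measured around the imprinted region of their gene.

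The flanks lost methylation in the groups with W465A by amounts close to those of the genome. As a share of WT, the median over the 10 genes was 29.7% in the triple mutant, 30.9% in W464A/W465A, 42.8% in W465A and 70.8% in W465A/W796A. Over all CpGs of the genome outside dense regions the level was 72.2% in WT, 21.7% in the triple mutant, 22.4% in W464A/W465A, 30.7% in W465A and 51.3% in W465A/W796A. The median flank was 70.7% in W796A and 71.0% in WT. At the Peg3 flanks the W465A libraries had 36.2%, 30.4% and 26.0%, all below the WT libraries, and the W465A/W796A libraries had 46.3%, 50.6% and 48.9%, between the 2 groups. The Snrpn flanks had the lowest W465A level of the 10, at 24.6%, 16.0% and 16.6%, all below the lowest WT library at 52.4%. The Peg10 flanks had the highest, with 41.0% ± 7.70 (SD, n = 3), from 79.5% ± 7.78 in WT. The Airn flanks, with the most CpGs at 398, had 33.5% ± 5.63 in W465A and 75.4% ± 9.40 in WT (SD, n = 3). The Zdbf2 flanks had 32.3% ± 7.03 in W465A, 56.7% ± 0.741 in W465A/W796A and 76.5% ± 7.33 in WT (SD, n = 3).

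Tile by tile, 254 of the 293 tiles fell in W465A, 86.7%, against 90.6% of all tiles lower and 0.000129% higher. In W464A/W465A 263 fell, 89.8%, against 94.3% of all tiles lower and 0.000129% higher. In the triple mutant 268 fell, 91.5%, against 95% of all tiles. At this read minimum of 1 the shares at the imprinted genes lay near those of the genome. With at least 5 reads per CpG in every library they lay below, with 31 of 56 tiles in W465A against 82.8% of all tiles. The CpGs left at that minimum include those of regions under 10% in WT, which could not be called lower. The cause of the smaller share was not tested. The median difference over the 293 tiles was -43.0 points in W465A, against -43.6 points over all tiles. Every gene took part in W465A, from 6 of 8 tiles at Mcts2, 9 of 13 at Peg10 and 13 of 18 at Impact to 31 of 34 at Kcnq1ot1, 39 of 43 at Inpp5f and 63 of 71 at Airn. edgeR's quasi-likelihood test called 252, 262 and 267 of the tiles in W465A, W464A/W465A and the triple mutant, against 88.6%, 93.9% and 94.4% of all tiles. Among the 39 dense regions tested in the windows, 22 fell in W465A, 56.4%, against 74.1% of all dense regions lower and 0.00108% higher. In W464A/W465A 22 fell as well, against 76.8% of all, and in the triple mutant 23 fell, against 77%. The 9 imprinted regions are among these 39 and, with WT levels under 10%, could not be called lower.

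In the W465A/W796A double mutant the number of calls depended on the test and on single libraries. Against WT the quasi-binomial model called 83 tiles lower, 28.3%, against 29.6% of all tiles, while edgeR called 29 (10.4% of all tiles) and limma 21 (6.04%). By gene these calls ran from 0 of 13 tiles at Peg10 and 4 of 22 at Zdbf2 to 14 of 41 at Plagl1 and 25 of 71 at Airn. The quasi-binomial model called 0 tiles without WT replicate 2 (0.000388% of all tiles) and 31 without WT replicate 3 (10.3%). It called 32 without W465A/W796A replicate 2 (9.2%) and 12 without W465A/W796A replicate 3 (4.17%). Against W465A the model called 57 tiles higher, 19.5%, against 19.8% of all tiles higher and 0.000776% lower, while edgeR called 20 (7.36%) and limma 6 (1.32%). That count was 7 without W465A replicate 2, 0 without W465A replicate 3, 0 without W465A/W796A replicate 1, and 34 and 33 without its replicates 2 and 3. In these libraries overdispersion grew with coverage, from a median of 2.09 in the tiles with fewest reads to 5.31 in those with most (the outer 2 of 4 equal groups), which the quasi-binomial variance does not allow for. On simulated data with such spread the model called too many unchanged features and edgeR did not. Of the 39 dense regions 5 were lower than WT, against 14.3% of all lower and 0.00324% higher, and 5 were higher than in W465A, against 25.6% of all higher and 0.00324% lower. edgeR called 0 and 2 of the 39, against 2.03% and 13.7% of all dense regions, and 7 and 10 had an unadjusted p under 0.05.

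**Figure D4:**
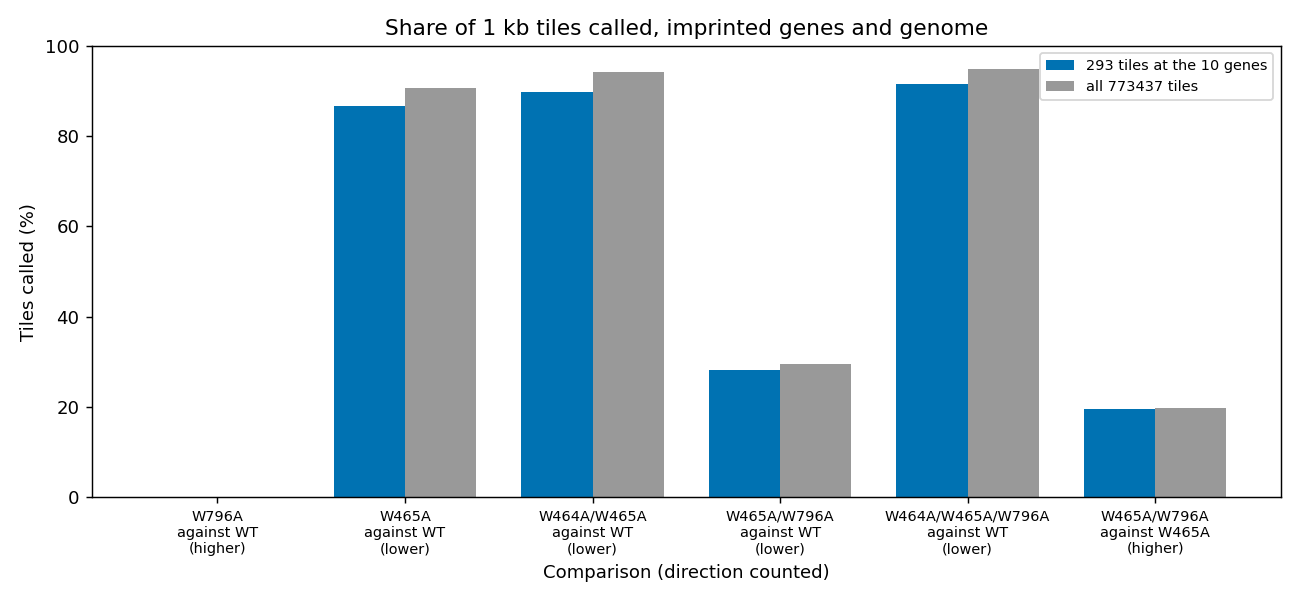
Share (%) of 1 kb tiles called by the quasi-binomial model in each comparison, for the 293 tiles at the 10 genes (blue) and all 773437 tiles (grey), in the direction named under each pair. The bars of a pair are of similar height, from 86.7% against 90.6% in W465A to 19.5% against 19.8% for W465A/W796A against W465A.

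The tiles that follow were chosen among the called tiles with the largest difference per gene, so they exceed the typical tile. The median pooled difference over the 293 tiles was -20.6 points for W465A/W796A against WT and 20.7 points against W465A. The Mcts2 tile at chromosome 2, 152683001 to 152684000 (7 CpGs) had 74.4%, 90.0% and 85.1% in WT and 45.3%, 27.4% and 31.6% in W465A, without overlap. It fell by 50.4 points, with reads pooled over libraries, in W465A (adjusted p = 0.000215, quasi-binomial model). The Zdbf2 tile next to the promoter, at chromosome 1, 63274001 to 63275000 (14 CpGs), had 32.7%, 56.5% and 50.9% in WT. In W465A/W796A it had 9.20%, 2.17% and 12.9%, below every WT library. With reads pooled over libraries that tile fell by 42.0 points (adjusted p = 0.00467, and 0.0189 by edgeR). The Airn tile at chromosome 17, 12758001 to 12759000 (3 CpGs) had 38.1%, 27.0% and 53.6% in W465A and 93.3%, 77.8% and 86.1% in W465A/W796A, without overlap. The pooled level was higher by 44.7 points in W465A/W796A (adjusted p = 0.0147, and 0.0167 by edgeR). The Peg10 tile at chromosome 6, 4755001 to 4756000 (19 CpGs) had 51.7%, 40.9% and 40.5% in W465A and 79.7%, 73.4% and 66.3% in W465A/W796A. Its adjusted p was 0.0160 by the quasi-binomial model and 0.0593 by edgeR, so edgeR did not call it.

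In the main fit W796A against WT gave no called tile and no called dense region at the 10 genes. The shares called over all tiles were 0.000388% lower and 0.00323% higher. At an unadjusted p under 0.05 the quasi-binomial model had 15 of the 293 tiles, 6 lower and 9 higher, against 1.71% of all tiles lower and 1.66% higher, and edgeR and limma had 11 each and called 0. Without W796A replicate 1, the model called 1 tile, against 0.0802% of all tiles. Among the 39 dense regions 1 was lower and 4 were higher at an unadjusted p under 0.05 by the model, against 3.79% of all dense regions lower and 4.88% higher. By edgeR 5 had such a p and 0 were called. Over all dense regions 0.0119% were called higher. With replicate number as a block, which the labels do not state, the model called 1 tile and 2 dense regions higher, Plagl1 and Airn. The shares called were then 0.0231% of all tiles and 0.205% of all dense regions.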

How the data were processed

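Counts of methylated reads and of all reads per CpG and library were deposited by the authors as whole numbers with no normalization. Per the submitters' processing notes, cutadapt 1.2.1, Bismark 0.18.1 and Bowtie 1.2 were used with the mm10 and GRCm38 builds, and duplicate removal is not given in the sources used here. The CpG positions equal those of GRCm38, so GENCODE M21 was used. A level is the sum of methylated over all reads at CpGs with at least 1 read in all 18 libraries, so CpGs with more reads weigh more. CpG-dense regions were merged 200 bp windows with a GC share of at least 0.5 and an observed over expected CpG ratio of at least 0.6.

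Tiles and dense regions with at least 3 CpGs were fitted over all 6 groups with a quasi-binomial logistic model (Python 3.11.15, numpy 2.4.6, scipy 1.17.1), overdispersion squeezed across features, an F test and Benjamini-Hochberg adjustment over all tiles or all dense regions. limma 3.58.1 (log2 ratios of the deposited counts, 0.5 added) and edgeR 4.0.16 in R 4.3.3 were alternatives. The fit was tested on simulated data: it kept its nominal rate where the spread between libraries shrinks with reads, and called too many unchanged features where it does not. The test had been set before this was seen and was kept, with edgeR's counts given beside it. Single region levels were also compared by exact two-sided permutation tests over libraries, not adjusted. The named tiles are, per gene and comparison, taken from the called tile with the largest difference. Tiles shown in full were picked from these after their values were seen.

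The members and lists were chosen with earlier results of these data known. The Snrpn region departs from the rule of using the gene start.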

Additional observations from a re-analysis of the deposited data

Results flagged for a closer look

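At the Zdbf2 promoter W796A and W465A/W796A moved in opposite directions from their controls, a difference that was not tested. The W796A libraries had 0.837%, 0.792% and 0.842%, above the WT libraries at 0.361%, 0.238% and 0.610%, a difference of means of 0.421 points. The W465A/W796A libraries had 0.247%, 0.328% and 0.144%, below the W465A libraries at 0.460%, 1.15% and 0.667%. All of these levels are close to 0.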

How the results depend on the processing

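Counts called for W465A, W464A/W465A and the triple mutant against WT held in most settings, while those for W465A/W796A did not. Of 198 recomputed counts, 133 stayed within 1.5 times. Below, W465A/W796A is given against WT first and against W465A second. Without squeezing the overdispersion it had 55 and 22 tiles and 3 and 3 dense regions. The shares over all tiles were 18.2% and 6.72%, and over all dense regions 6.99% and 14.3%. limma gave 21 and 6 tiles, against 6.04% and 1.32% of all tiles. edgeR gave 29 and 20 tiles, against 10.4% and 7.36% of all tiles, and 0 and 2 dense regions, against 2.03% and 13.7% of all. With only the 2 groups compared in the fit, 0 and 8 dense regions were called, against 6.68% and 31% of all.

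With more reads required, fewer features could be tested and a smaller share of them was called than in the genome. Of 643 CpGs in the windows with 5 reads in all 18 libraries, 74 lie in the Igf2r promoter and 67 in the Zdbf2 promoter. The imprinted regions of Plagl1 and Impact hold 39 and 35. These regions lay under 10% in WT, so they could not fall by 10 points. Whether this accounts for the smaller share was not tested. With at least 5 reads per CpG in every library, the tiles called, of 56, were 31 in W465A, 33 in W464A/W465A, 33 in the triple mutant, and 13 and 11 for W465A/W796A, against 82.8%, 84.5%, 84.6%, 24.2% and 26.3% of all tiles. In the same order the dense regions, of 19, were 4, 5, 5, 1 and 2, against 62.4%, 64.0%, 64.0%, 12.2% and 22.6% of all. At 10 reads the tiles, of 13, were 2, 2, 2, 1 and 1, against 57.9%, 58.9%, 59.0%, 14.9% and 20.2%. The dense regions, of 10, were 0 in all of these by the quasi-binomial model (2, 3, 3, 0 and 1 at an unadjusted p under 0.05), against 39.7%, 40.8%, 40.7%, 6.53% and 11.6%. edgeR was not run at these minimums. With 1 CpG per tile enough, 543 tiles could be tested. Of these 426, 470 and 482 were called in W465A, W464A/W465A and the triple mutant, against 80.4%, 88.3% and 90.3% of all tiles. With the stricter Takai-Jones definition the dense regions were 1, 1, 1, 0 and 1. The imprinted region of Airn has no CpG with 5 reads in all 18 libraries, so it has no value at that minimum.

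Leaving out 1 library at a time gave 200 to 259 tiles in W465A, 238 to 264 in W464A/W465A, 247 to 267 in the triple mutant, 0 to 122 and 0 to 71 for W465A/W796A, and 0 to 1 in W796A. The dense regions ran from 14 to 22, 20 to 23, 21 to 23, 0 to 7, 0 to 5 and 0 to 1. In the same order the shares over all tiles were 72.3% to 91.6%, 85.5% to 94.7% and 87.7% to 95.2%. For W465A/W796A they were 0.000388% to 47.5% and 0.000517% to 27.6%. Over all dense regions the shares were 55.5% to 75.6%, 65.9% to 77.8% and 65.9% to 77.9%. For W465A/W796A these were 0% to 30.2% and 0.00108% to 31.6%. The 14 in W465A came without WT replicate 2. For W465A/W796A against WT the 5 dense regions became 0 without WT replicate 2 (0% of all), WT replicate 3 (4.84%) or its own replicate 3 (0.788%). They became 1 without its replicate 1 (8.5%) or 2 (1.99%). Against W465A the 5 became 2 without W465A replicate 2 (4.67% of all) and 3 without W465A/W796A replicate 2 (20.2%). They became 0 without W465A replicate 3 (0.00108%) or W465A/W796A replicate 1 (0.0367%). Without WT replicate 3 or W796A replicate 1, Airn was called higher in W796A (adjusted p = 0.0457 and 0.0220). The falls at the Platr12 start were under a 25 point minimum, and the W465A one had an adjusted p of 0.0552 at 10 reads. Among 632 recomputed values of the named tiles 87 lost their call, all in comparisons of W465A/W796A.

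The labels state no pairing by replicate number, and the main fit used none. The correlation of deviations between WT and W796A libraries of the same number was 0.0538 to 0.0825, under a cut-off of 0.1. Between libraries of different numbers it was -0.0876 to 0.0241, and 6 of 6 correlated best with their own number. Whether the WT and W796A libraries are paired is not settled by these values. A block by replicate number sets the same effect in all 6 groups. With that block in the quasi-binomial model, W796A had 1 tile called, against 0.0231% of all tiles. It had 2 dense regions called, Plagl1 (adjusted p = 0.0171) and Airn (adjusted p = 0.0266), against 0.205% of all dense regions. W465A/W796A had 0 dense regions called against WT with this block, against 8.06% of all. Depth limits the levels of single regions, since the 9 imprinted regions rest on 152 to 1557 CpG calls per library, the Platr12 start on at least 142 and the Impact promoter on at least 54.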
